A study of Danio rerio with 10 samples.

Results

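Collagen genes were taken as every gene whose symbol in the deposited gene lists begins with col, a type number, the letter a and a chain number. This rule gave 54 genes of 25107, which carry 52 symbols because col6a3 and col19a1 each stand for 2 gene identifiers. Their mRNA was followed across the cell types and 3 genotypes of an experiment on 10 single zebrafish embryos. The embryos were whole and at an early somite stage (3 ss in the sample labels, 4 ss in the methods). They were dissociated and sequenced as 10 separate single-cell libraries. The methods give Tubingen or AB as the strain behind the fish lines and do not name the strain of each embryo. There were 4 wildtype embryos, 3 compound mutants of dact1 and dact2 (dact1-/-;dact2-/-, called dact1/2 mutants) and 3 gpc4-/- mutants. No treatment is given for any of them. The dact1 and dact2 alleles are germline deletions with premature stop codons and the gpc4 allele is a viral insertion, so every cell of a mutant embryo carried the lesion, and mutants were picked by their truncated body axis because the dissociated embryos could not be genotyped. Dact1 and Dact2 are cytoplasmic modulators of Wnt signaling and Gpc4 is a cell surface heparan sulfate proteoglycan, and both genotypes shorten the embryonic axis. The comparison of the 2 mutants with wildtype asks which gene expression changes of the axis extension defect they have in common.

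Collagens are secreted proteins in which 3 chains wind into a triple helix. Fibril-forming chains assemble into ropes, type IV chains into the sheet of the basement membrane, and fibril-associated chains decorate the surface of fibrils. In the early fish embryo the notochord, a rod of axial mesoderm, is wrapped in a sheath rich in type II collagen that holds the pressure of its vacuolated cells, and epidermis, somites and neural tube each rest on a basement membrane. Before a chain leaves the cell its prolines and lysines are hydroxylated, the chaperone Serpinh1 (Hsp47) binds the helix, and enlarged transport vesicles carry it out.

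Each value is a count of unique molecular identifiers (UMIs) at the 3′ end of transcripts. It is given as CPM, the counts divided by all UMIs of the same cells and embryo and scaled to a common library total of 1e+06, and it is not scaled by transcript length because 3′ counting reads each transcript once. Cells kept after quality control numbered 16449, between 942 and 2634 per embryo, with 10168109 to 18839132 UMIs per embryo and a median of 4221 to 11027 UMIs per cell. The collagen genes were left out of the genes used for clustering. Clusters were named from lists of marker genes, and 29 cell barcodes (0.353% of kept cells) occurred in more than 1 library. As a check of the genotype labels, dact1 was at 6.46 to 7.99 CPM in wildtype and 2.60 to 2.98 CPM in dact1/2 mutants, and gpc4 was at 50.7 to 78.8 CPM in wildtype and 13.5 to 17.7 CPM in gpc4 mutants. The dact2 level did not separate the groups (42.7 to 87.9 CPM in wildtype, 43.9 to 53.3 CPM in dact1/2 mutants), and a 3′ tag outside a small deletion does not test the lesion. Wildtype replicate 1 stood apart from the other wildtype embryos in the collagen genes. Of 35 members with 100 UMIs or more, 27 were lowest in that embryo of all 10. The same count was not made over all genes, so it does not show a trait particular to collagens. Including that embryo also lowered the number of genes of any kind called in the comparisons with wildtype given below.

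Of the 54 genes, 46 were found in enough cells to be kept by the gene filter. Together the 54 genes gave 163096 UMIs, which is 0.121% of all UMIs. In whole embryos they summed to 646 CPM in wildtype replicate 1 and to 1340, 1240 and 1590 CPM in wildtype replicates 2 to 4. The sums were 1290, 1370 and 1050 CPM in dact1/2 mutants and 1230, 1180 and 1160 CPM in gpc4 mutants. All 6 mutant sums lay inside the range of the 4 wildtype embryos. In such sums, fewer cells of a type and less RNA per cell cannot be told apart. The family was uneven. col28a2b had 0 UMIs (a count of 0 allows up to 3 UMIs), 18 members had 1 to 99, 12 had at least 100 but fewer than 1000, and 23 had 1000 or more, and the 5 most abundant members held 55.2% of the UMIs. Fibril-forming chains held 39.5% of the collagen UMIs, the multiplexins (types XV and XVIII) 21.7%, type IV chains 20.1%, fibril-associated chains 9.49%, the short-chain type VIII and X genes 5.53% and type VII, the anchoring fibril collagen of skin, 2.46%. The 9 type VI and XXVIII genes held 1.18%, and the 2 transmembrane genes of type XVII, known from hemidesmosomes of skin, held 0.0159%.

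**Figure D1:**
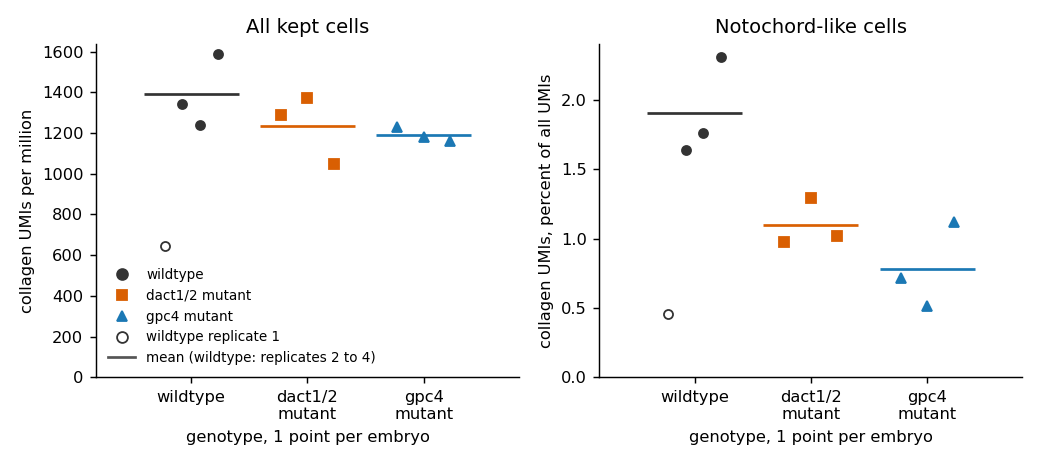
Sum of the 54 collagen genes per embryo in all kept cells (left, CPM) and in notochord-like cells (right, percent of all UMIs), with 1 point per embryo, the genotype on the x axis and bars at the mean, which for wildtype covers replicates 2 to 4. Wildtype replicate 1 (open circle) lies at 646 CPM and 0.453%, below the other wildtype embryos on both sides, while mutants lie below wildtype replicates 2 to 4 on the right.

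Across cell types, collagen mRNA was concentrated in the notochord. The notochord-like cluster had 417 of the 16449 cells, and 13 of the 14 notochord markers reached the detection minimum in it. Collagens took 0.453%, 1.64%, 1.76% and 2.31% of its UMIs in wildtype replicates 1 to 4, and this one cluster gave 33.4% of all wildtype collagen UMIs. The next clusters were the cephalic mesoderm-like cells with 0.238% ± 0.0819 (SD, n = 4) of their UMIs and the adaxial-like cells with 0.156% ± 0.0380 (SD, n = 4). The presomitic mesoderm-like, germ cell-like and hatching gland-like cells had the lowest shares, between 0.0215% and 0.0280%. Of 29 members with 100 UMIs or more in wildtype, 13 had their highest mean CPM in notochord-like cells, 5 in epidermis-like, 4 in adaxial-like, 3 in cephalic mesoderm-like and 2 in heart field-like cells, with 1 each in somite-like and pronephros-like cells. Since the clusters were made from the same cells, these levels are a description and carry no test.

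**Figure D2:**
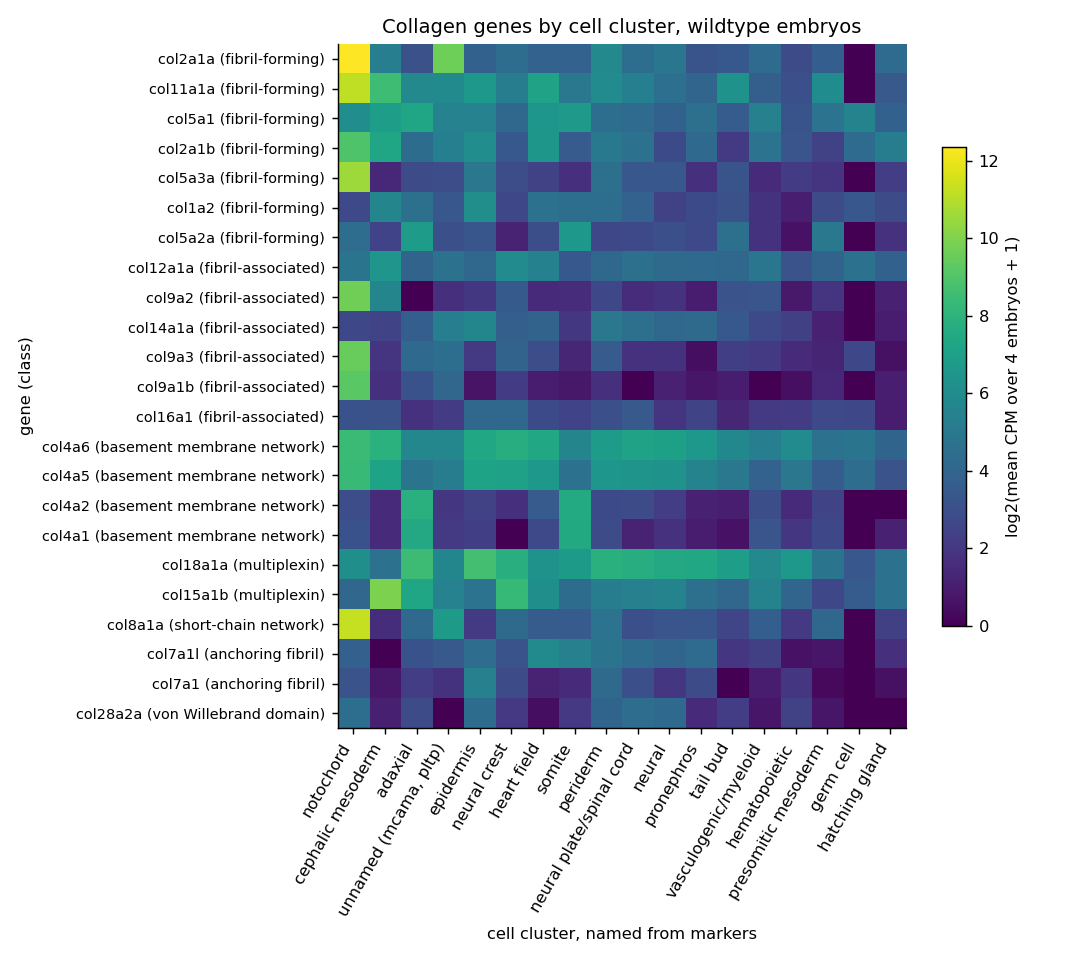
Mean CPM over the 4 wildtype embryos, as log2 of CPM plus 1, of the 23 collagen genes with 1000 UMIs or more (rows, ordered by class) in the 18 cell clusters (columns, ordered by the share of collagen UMIs). The notochord column holds the brightest cells (col2a1a at 5290 CPM), type IV genes fall into a broad pair and a pair seen in adaxial-like and somite-like cells, and col15a1b is brightest in cephalic mesoderm-like cells.

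The leading notochord gene was col2a1a, a fibril-forming chain of notochord sheath and cartilage. Its level in notochord-like cells was 1080, 5500, 5930 and 8640 CPM in wildtype replicates 1 to 4, and these cells held 75.6% of its wildtype UMIs. The second place was 786 ± 118 CPM (SD, n = 4), in a cluster of 786 cells that was left unnamed, led by mcama, pltp and afp4 with 5 endoderm markers detected. The ranges of the 2 clusters did not overlap. Next came col8a1a, a short-chain network collagen, with 757, 2640, 2980 and 3450 CPM and 83.4% of its wildtype UMIs in notochord-like cells. col11a1a, a minor fibril chain that is known to build mixed fibrils with type II, was at 1230, 2470, 2510 and 3230 CPM there, and was also seen in cephalic mesoderm-like cells (364 ± 128 CPM, SD, n = 4). col5a3a, a type V chain, was lopsided between wildtype embryos, with 144 CPM in replicate 1 and 1770, 1820 and 2380 CPM in replicates 2 to 4. Outside notochord-like cells its highest mean was 29.0 CPM.

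All 3 type IX chains that were well detected shared this pattern. Type IX collagen has no fibrils of its own and coats type II fibrils. In notochord-like cells of wildtype replicates 1 to 4, col9a2 was at 77.7, 775, 1010 and 1460 CPM and col9a3 at 203, 763, 832 and 1060 CPM. col9a1b was at 258, 517, 768 and 813 CPM, and these cells held 90.4% of its wildtype UMIs. The duplicate col9a1a was scarce, with 123 UMIs in all 10 embryos. The second type II gene, col2a1b, was lower and wider than col2a1a, at 506 ± 160 CPM (SD, n = 4) in notochord-like, 157 ± 50.2 in cephalic mesoderm-like and 92.1 ± 42.6 in heart field-like cells. col27a1b, a chain that forms thin fibrils, was at 34.7 to 134 CPM in notochord-like cells of wildtype.

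The type IV genes formed pairs. The chains encoded by col4a1 and col4a2 make the common basement membrane trimer and those of col4a5 and col4a6 a minor one, and the genes of each pair are direct neighbors among protein-coding genes in the zebrafish assembly GRCz12tu, as are col4a3 and col4a4. col4a6 and col4a5 were broad. Their wildtype levels were 348 ± 112 and 337 ± 161 CPM (SD, n = 4) in notochord-like cells, 236 ± 61.8 and 143 ± 71.0 in cephalic mesoderm-like cells, 166 ± 36.2 and 142 ± 44.5 in epidermis-like cells and 131 ± 22.5 and 81.9 ± 14.9 in neural-like cells. In the 14 clusters where the pair had at least 100 wildtype UMIs, the ratio of col4a6 to col4a5 UMIs ran from 1.14 in notochord-like to 2.3 in hematopoietic-like cells. col4a1 and col4a2 were narrow. In somite-like cells col4a1 was at 182 ± 63.0 CPM and col4a2 at 191 ± 63.2 CPM (SD, n = 4), and in adaxial-like cells, the first slow muscle precursors, they were at 175 ± 86.3 and 230 ± 72.9 CPM. These 2 clusters held 82.4% of wildtype col4a1 UMIs and 79.7% of col4a2 UMIs, but 2.41% of col4a5 and 3.24% of col4a6 UMIs. The third pair was near the limit of the data, with 138 UMIs of col4a4 and 79 of col4a3 over all embryos.

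**Figure D3:**
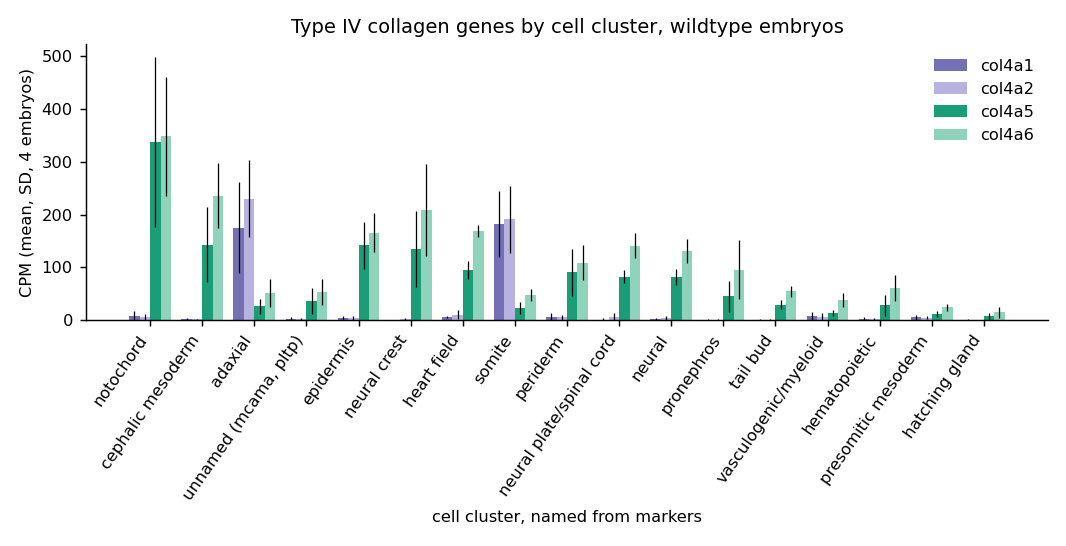
Wildtype CPM (y axis, bars at the mean and lines at 1 SD of 4 embryos) of col4a1, col4a2, col4a5 and col4a6 in the 17 clusters with at least 100 cells (x axis). col4a1 and col4a2 rise above 50 CPM only in the adaxial-like and somite-like clusters, where col4a5 and col4a6 are low.

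The multiplexins, basement membrane proteoglycans whose ends release fragments such as endostatin, differed from each other in breadth. col18a1a was the most abundant collagen gene of the embryo with 24989 UMIs and reached 50 CPM in 13 of 18 clusters. It was at 256, 459, 417 and 480 CPM in epidermis-like cells of wildtype replicates 1 to 4, at 356 ± 97.4 CPM (SD, n = 4) in adaxial-like cells, with overlapping ranges, and at 177 ± 12.3 CPM in neural-like cells. col15a1b was at 481, 1020, 1320 and 1040 CPM in cephalic mesoderm-like cells and at 166, 329, 380 and 390 CPM in neural crest-like cells, without overlap, and it passed 50 CPM in 4 clusters. col18a1b had 3 UMIs in all.

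The remaining fibril-forming genes were lower. col5a1, the type V chain that nucleates fibrils, was highest in adaxial-like cells (54.4 to 295 CPM in wildtype) and overlapped with cephalic mesoderm-like cells (16.9 to 197 CPM). col5a2a followed it in adaxial-like (115 ± 49.5 CPM, SD, n = 4) and somite-like cells (97.2 ± 28.3 CPM). Type I is the main collagen of later bone and skin. col1a2 was at 6.99, 82.2, 88.5 and 92.4 CPM in epidermis-like cells of wildtype replicates 1 to 4. Its partner genes col1a1a and col1a1b had 684 and 241 UMIs in all embryos against 2980 of col1a2, and col1a1a was highest in pronephros-like cells at 36.0 ± 19.7 CPM. Epidermis-like cells also had the highest means of col14a1a (49.6 ± 22.8 CPM) and col7a1 (40.2 ± 26 CPM). The fibril-associated col12a1a was highest in cephalic mesoderm-like cells at 86.8 ± 38.0 CPM, and it was one of the few abundant members with no deficit in wildtype replicate 1 (25.3 CPM in the whole embryo against 22.1, 20.4 and 20.8). Another type VII gene, col7a1l, led in heart field-like cells at 58.8 ± 29.0 CPM.

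Collagen mRNA of notochord-like cells was lower in both mutants than in wildtype replicates 2 to 4. Each mutant was compared with these 3 embryos in a separate fit of edgeR's quasi-likelihood test over all genes of the summed notochord-like cells. A gene was called when its Benjamini-Hochberg adjusted p was below 0.1 and its log2 fold change was larger than 0.58 in size. In dact1/2 mutants 7 of 15 tested members were called and all 7 were lower, where 1.65% of 4175 tested genes were called lower (2.32% in either direction). In gpc4 mutants 10 of 14 tested members were called, again all lower, where 7.42% of 4096 genes were (10.7% in either direction). The 7 genes of the first list, col2a1a, col5a3a, col8a1a, col9a1b, col9a2, col9a3 and col27a1b, were in the second too, but the comparisons share their wildtype embryos. The members tested had a median log2 fold change of -0.55 in dact1/2 and -1.15 in gpc4 mutants, beside 0.02 and 0.00 in size over all genes tested. With all 4 wildtype embryos 0 members were called in either mutant, where 0% and 0.0229% of all genes were called. At an unadjusted p under 0.05 were 1 of 15 and 3 of 15 members, beside 252 of 4376 and 476 of 4360 genes. The calls below are therefore against wildtype replicates 2 to 4 alone, the wildtype embryos used in the study's own display of its lineage comparisons. The study's methods list 4 wildtype embryos and mention no exclusion of an embryo.

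For col2a1a the mutant levels were 3140, 4220 and 3330 CPM in dact1/2 and 2430, 1420 and 3640 CPM in gpc4 mutants. All 6 lay below the 5500 to 8640 CPM of wildtype replicates 2 to 4 and above the 1080 CPM of replicate 1. The log2 fold change was -0.85 ± 0.15 (SE, adjusted p = 0.0136, edgeR) in dact1/2 mutants and -1.44 ± 0.26 (SE, adjusted p = 0.0148) in gpc4 mutants. With all 4 wildtype embryos it was -0.51 ± 0.50 (adjusted p = 0.895) and -1.09 ± 0.57 (adjusted p = 0.500).

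col5a3a had the smallest adjusted p of the dact1/2 comparison among members. It was at 853, 1070 and 1030 CPM in dact1/2 and 657, 392 and 920 CPM in gpc4 mutants, between wildtype replicate 1 (144 CPM) and the others (1770 to 2380 CPM). It fell by 0.96 ± 0.14 on the log2 scale (SE, adjusted p = 0.00299, edgeR) in dact1/2 mutants and by 1.61 ± 0.24 (adjusted p = 0.00520) in gpc4 mutants. Against all 4 wildtype embryos the changes were -0.57 ± 0.63 and -1.22 ± 0.70.

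col8a1a was at 1310, 2160 and 1780 CPM in dact1/2 mutants and 1250, 809 and 1980 CPM in gpc4 mutants, below the 2640 to 3450 CPM of wildtype replicates 2 to 4. It fell by 0.74 ± 0.15 (SE, adjusted p = 0.0317, edgeR) and by 1.18 ± 0.24 (adjusted p = 0.0176). The type IX chains moved alike. col9a2 fell by 0.91 ± 0.19 (adjusted p = 0.0348) in dact1/2 mutants, with 499, 620 and 548 CPM, and by 1.33 ± 0.31 (adjusted p = 0.0278) in gpc4 mutants, with 237, 458 and 630 CPM. For col9a3 the changes were -0.92 and -1.40, and for col9a1b -0.94 and -0.99. All 3 type IX genes were called in both mutants, and their mutant embryos lay below wildtype replicates 2 to 4. col27a1b (-1.14 and -1.78) rests on little, with 7 to 46 UMIs per embryo. Its dact1/2 call was lost without wildtype replicate 2, wildtype replicate 4 or any dact1/2 embryo, and its gpc4 call without gpc4 replicate 1. In dact1/2 mutants the calls of col8a1a and the type IX genes were lost without wildtype replicate 4. That of col8a1a was also lost without dact1/2 replicate 1. The gpc4 call of col9a1b was lost without gpc4 replicate 1.

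A further 3 genes were called in gpc4 mutants only, which by itself does not show a difference between the mutants. col11a1a was at 1570, 2120 and 1720 CPM in dact1/2 mutants, where its change of -0.55 ± 0.13 passed the adjusted p (0.0587, edgeR) and missed the fold threshold, and at 1020, 611 and 1640 CPM in gpc4 mutants (-1.34 ± 0.26, adjusted p = 0.0163). col4a5 was at 283, 348 and 220 CPM in dact1/2 mutants (-0.48 ± 0.18, adjusted p = 0.209) and at 184, 183 and 212 CPM in gpc4 mutants, where it fell by 1.13 ± 0.17 (adjusted p = 0.00775). Its neighbor col4a6 was not called in either (-0.25 ± 0.18 and -0.65 ± 0.23). col2a1b was at 507, 490 and 261 CPM in dact1/2 mutants (-0.39 ± 0.21) and at 263, 234 and 379 CPM in gpc4 mutants, and it fell by 1.01 ± 0.19 in the latter (adjusted p = 0.0159). When the 2 mutants were set against each other in notochord-like cells, a test added after the values were seen, 0 of 15 members were called (1.3% of 4398 genes were) and 6 had an unadjusted p under 0.05. The members with the smallest p were col11a1a, at 0.75 ± 0.24 higher in dact1/2 mutants (adjusted p = 0.215, edgeR), and col4a5, at 0.60 ± 0.19 higher (adjusted p = 0.215). With the shared replicate numbers as a block, 2 of 15 were called, beside 2.14% of all genes, both higher in dact1/2 mutants. These were col11a1a (0.83 ± 0.19, adjusted p = 0.0430, edgeR) and col5a3a (0.67 ± 0.18, adjusted p = 0.0654), each higher in the dact1/2 embryo of all 3 pairs. Both calls were lost without pair 1 or pair 2, where 0% and 1.39% of all genes were called. Without pair 3, 11 of 17 members were called, beside 6.45% of 5274 genes. The broad gene col18a1a was not called in notochord-like cells of either mutant, with log2 fold changes of 0.60 ± 0.29 and 0.11 ± 0.33 (SE).

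**Figure D4:**
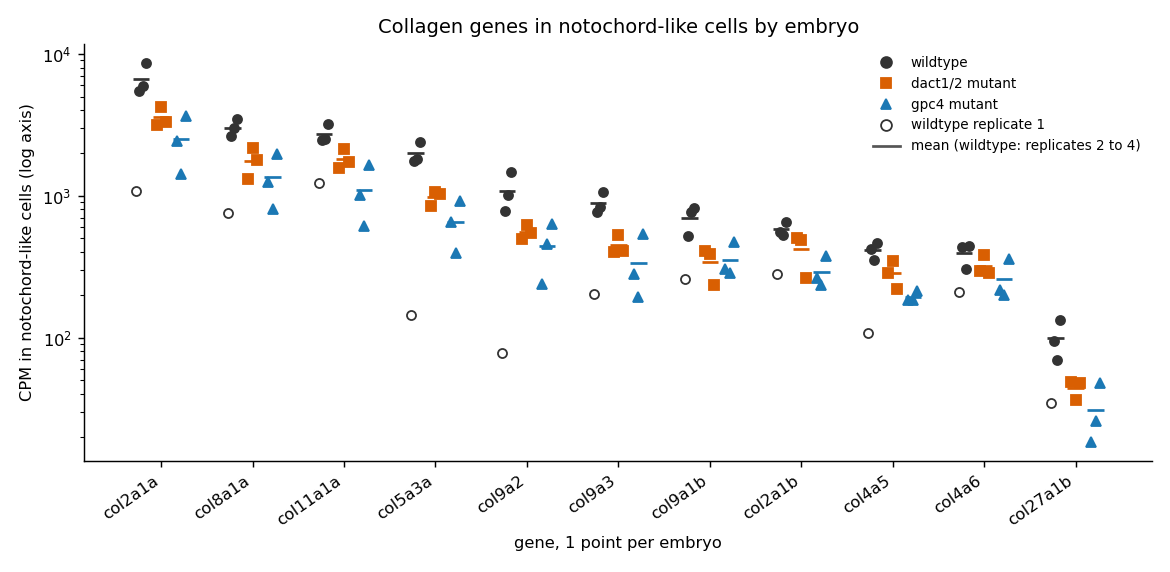
CPM in notochord-like cells (y axis, log scale) of the 11 collagen genes with at least 100 UMIs there in wildtype, with 1 point per embryo and bars at the mean, which for wildtype covers replicates 2 to 4. For col2a1a the 6 mutant embryos (1420 to 4220 CPM) lie between wildtype replicate 1 at 1080 CPM, the open circle, and wildtype replicates 2 to 4 at 5500 to 8640 CPM.

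Several other measures are given beside this result. The notochord-like cluster held 50, 39, 37 and 33 cells of wildtype replicates 1 to 4, 60, 68 and 37 of dact1/2 mutants and 30, 29 and 34 of gpc4 mutants. Of the 14 notochord markers, 13 are not collagen-processing genes, none of these was at 0 over all embryos, and they summed to 4220 to 5520 CPM in wildtype, 3420 to 3750 CPM in dact1/2 and 2870 to 3170 CPM in gpc4 mutants, without overlap between wildtype and either mutant. Among them cmn (calymmin), a matrix gene of the notochord, was at 584, 565 and 755 CPM in wildtype replicates 2 to 4 and 135 to 415 CPM in the mutants, but at 38.8 CPM in wildtype replicate 1. In that embryo chrd, the BMP antagonist chordin, was at 270 CPM against 18.2 to 49.6 CPM in the other wildtype embryos, and twist2 was at 442 CPM against 74.7 to 175 CPM. Their part in the collagen levels was not tested. Over all kept cells the median UMIs per cell were 10968, 8461, 4221 and 11027 in wildtype replicates 1 to 4. They were 4779.5 to 5679 in dact1/2 and 4304 to 7466.5 in gpc4 mutants. At a finer clustering the notochord-like cells fell into a larger and a smaller cluster. In the larger one alone 7 members were called in dact1/2 mutants (1.75% of all genes were called lower and 2.49% either way) and 10 in gpc4 mutants (8.23% and 12.3%). Leaving out wildtype replicate 4 lowered the count in dact1/2 mutants to 2, beside 17 of 4471 genes of any kind.

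The genes that modify, fold and export collagen chains were followed as 62 genes in 4 lists. In notochord-like cells of gpc4 mutants 17 of 28 tested genes were called and all were lower, where 7.42% of all genes were called lower, with a median log2 fold change of -0.80 over the tested genes. In dact1/2 mutants 1 of 27 was called, where 1.65% of all genes were called lower, with a median of -0.33. The one gene called in both was serpinh1b, encoding the collagen chaperone Hsp47, with 1370, 1060 and 1690 CPM in wildtype replicates 2 to 4, 779, 960 and 918 CPM in dact1/2 mutants (-0.59 ± 0.15, adjusted p = 0.0821, edgeR) and 500, 641 and 723 CPM in gpc4 mutants (-1.17 ± 0.19, adjusted p = 0.00910). It was at 954 CPM in wildtype replicate 1. Its dact1/2 call held in 5 of 15 alternatives and was lost without wildtype replicate 2, wildtype replicate 4, dact1/2 replicate 1 or dact1/2 replicate 3, and in the larger notochord-like cluster (-0.58). In gpc4 mutants the list of hydroxylases and glycosyltransferases had 7 of 12 called, the prolyl hydroxylase subunits p4ha1a, p4ha1b and p4hb, the lysyl hydroxylases plod1a, plod2 and plod3 and the prolyl 3-hydroxylase partner crtap. Chaperones and export had 7 of 10, serpinh1a, serpinh1b, fkbp10b, fkbp14, the coat protein gene sec23a and the transcription factor genes creb3l1 and creb3l2, which are known to drive secretory genes. Of the extracellular enzymes 3 of 5 were called, the lysyl oxidases loxl2b and loxl5b, which crosslink chains, and pcolcea, an enhancer of procollagen cleavage. loxl5b was at 872, 731 and 1130 CPM in wildtype replicates 2 to 4, 541 CPM in replicate 1 and 309 to 389 CPM in gpc4 mutants (-1.40 ± 0.18, adjusted p = 0.00410). Of these 17 calls, those of creb3l1, p4hb, fkbp14, plod1a, p4ha1b, fkbp10b and pcolcea were each lost without any 1 of 4 embryos. The calls of crtap and p4ha1a were lost without wildtype replicate 2 or gpc4 replicate 1, and crtap also without wildtype replicate 4. That of loxl2b was lost without wildtype replicate 4 and that of serpinh1a without gpc4 replicate 1. loxl5b and p4ha1b are among the 10 leading genes of the cluster itself, and with all 4 wildtype embryos 0 genes of the 4 lists were called in either mutant.

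Outside the notochord few members were called, and 2 notochord collagens were higher in gpc4 mutants. In epidermis-like cells col2a1a was at 3.50, 9.72, 21.3 and 19.1 CPM in wildtype replicates 1 to 4, at 36.0, 36.5 and 18.9 CPM in dact1/2 mutants and at 54.8, 52.3 and 21.4 CPM in gpc4 mutants. The gpc4 embryos lay above all wildtype embryos, though the third only just, and the log2 fold change was 1.28 ± 0.32 (SE, adjusted p = 0.0820, edgeR). col8a1a was at 1.17, 1.77, 5.01 and 5.02 CPM in wildtype and at 13.7, 18.1 and 19.2 CPM in gpc4 mutants (1.97 ± 0.34, adjusted p = 0.0199), and at 2.60, 17.8 and 5.95 CPM in dact1/2 mutants (1.23 ± 0.55, adjusted p = 0.360). These were the 2 of 23 members called there in gpc4 mutants, beside 1.68% of 9357 genes. In dact1/2 mutants 0 of 23 were called, beside 1.29% of 9436 genes. There 2 members had an unadjusted p under 0.05, beside 1204 of 9436 genes. The col2a1a call was lost without any 1 of wildtype replicates 2 to 4, gpc4 replicate 1 or gpc4 replicate 2, at the finer clustering (adjusted p = 0.160) and with embryo means kept (adjusted p = 0.304). The col8a1a call held without each of the 6 embryos, and col8a1a was not tested in the other clusterings. Only the gpc4 embryos had enough UMIs of col8a1a to pass the filter that drops genes with low counts. It therefore entered this test through the group where it was high, though it was also called with no such filter. The levels are small against the 809 to 3640 CPM that both genes reach in notochord-like cells of gpc4 mutants. The 13 notochord markers summed to 116, 63.6, 81.0 and 65.7 CPM in epidermis-like cells of wildtype replicates 1 to 4, 126, 82.4 and 97.8 CPM in dact1/2 mutants and 98.5, 135 and 135 CPM in gpc4 mutants. Wildtype replicate 1 overlapped with both mutants and replicates 2 to 4 lay below them. Taken alone, emilin3a was at 0.502 to 3.50 CPM in wildtype and 5.88 to 12.7 CPM in gpc4 mutants. The 13 markers did not all separate the groups in this way, since their sum was higher in wildtype replicate 1 (116 CPM) than in gpc4 replicate 1 (98.5 CPM). Their part in the collagen values was not tested.

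In lateral plate mesoderm-like cells col2a1a was at 14.8, 12.9, 16.4 and 19.2 CPM in wildtype replicates 1 to 4, 36.7, 38.3 and 13 CPM in dact1/2 mutants and 56.3, 59.4 and 25.8 CPM in gpc4 mutants. All 3 gpc4 embryos lay above all 4 wildtype embryos, and the change was 1.63 ± 0.28 (SE, adjusted p = 0.0182, edgeR) in gpc4 mutants and 0.98 ± 0.30 (adjusted p = 0.139) in dact1/2 mutants. Here col8a1a did not rise with it (3.61 to 10.5 CPM in wildtype, 4.05 to 7.79 CPM in gpc4 mutants). The 13 notochord markers summed to 181 to 230 CPM in wildtype and 219 to 231 CPM in gpc4 mutants, with overlap. The other 2 of the 3 members called in gpc4 mutants (27 tested, beside 1.84% of 10027 genes) were the type I chains, in opposite directions. col1a1a fell from 18.5 to 22.4 CPM in wildtype replicates 2 to 4 to 6.48, 11.9 and 7.79 CPM (-1.12 ± 0.25, adjusted p = 0.0548), with 4.41 CPM in replicate 1, and col1a1b rose from 0.532 to 2.1 CPM to 6.07, 4.57 and 6.81 CPM (1.79 ± 0.46, adjusted p = 0.0991), on 1 to 15 UMIs per embryo. Only the gpc4 embryos had enough UMIs of col1a1b to pass the filter on low counts. Its call therefore comes from a gene that entered the test through the group where it was high. In dact1/2 mutants 1 of 25 members was called, beside 1.85% of 9989 genes. It was col14a1a, with 13.3, 11.3 and 17 CPM in wildtype replicates 2 to 4, 6.98, 5.01 and 7.42 CPM in the mutants and 0.803 CPM in wildtype replicate 1 (-1.02 ± 0.27, adjusted p = 0.0891). The col14a1a call was lost without wildtype replicate 2, wildtype replicate 4 or any 1 of the dact1/2 embryos. In gpc4 mutants the calls of col1a1a and col1a1b were lost without any 1 of wildtype replicates 2 to 4, gpc4 replicate 1 or gpc4 replicate 3, and that of col2a1a without wildtype replicate 2. In the unnamed cluster with the second highest col2a1a level, it was at 667 to 898 CPM in wildtype, 864 to 1120 CPM in dact1/2 mutants and 1170 to 1700 CPM in gpc4 mutants, a difference that was not tested.

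**Figure D5:**
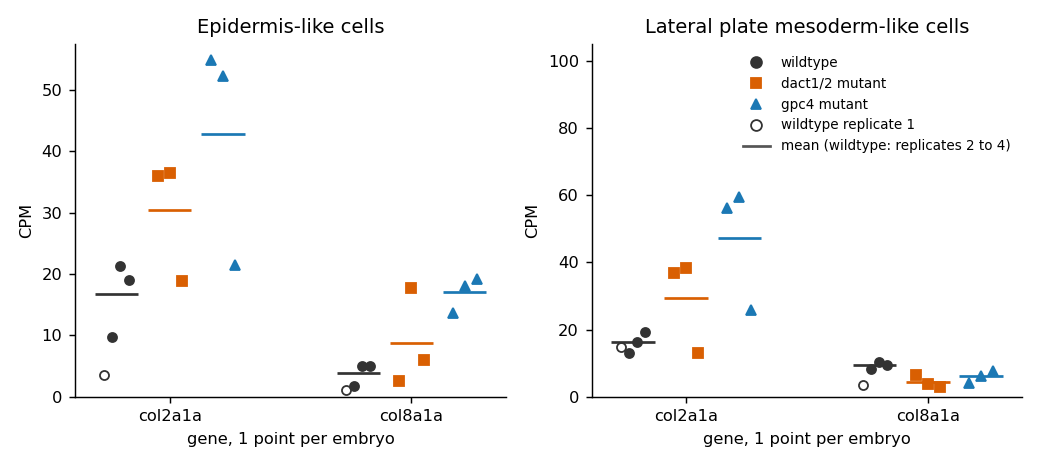
CPM of col2a1a and col8a1a in epidermis-like (left) and lateral plate mesoderm-like cells (right), with 1 point per embryo and bars at the mean, which for wildtype covers replicates 2 to 4. The gpc4 mutants reach 54.8 and 59.4 CPM of col2a1a, above all wildtype embryos (at most 21.3 CPM), and col8a1a is higher in gpc4 mutants on the left only.

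In ectoderm-like cells 1 of 24 members was called in dact1/2 mutants, beside 1.82% of 10514 genes. It was col28a2a, a collagen with von Willebrand domains, at 25, 18.2 and 18.5 CPM in wildtype replicates 2 to 4 and 14.2, 9.06 and 7.07 CPM in dact1/2 mutants (-0.93 ± 0.23, adjusted p = 0.0771, edgeR). Wildtype replicate 1 was at 2.34 CPM, below all mutants of this genotype, and the gpc4 embryos spread from 2.63 to 21.9 CPM. The call was lost when any of wildtype replicates 2 to 4, dact1/2 replicate 2 or dact1/2 replicate 3 was left out. In gpc4 mutants 0 of 24 were called, beside 2.12% of 10201 genes (3 had an unadjusted p under 0.05, as did 1384 of all genes). In paraxial mesoderm-like cells, the site of col4a1 and col4a2, 0 of 22 members were called in dact1/2 mutants and 0 of 20 in gpc4 mutants, beside 1.06% and 1.73% of the genes tested. An unadjusted p under 0.05 was found for 3 and 4 members, beside 1092 of 8933 and 1093 of 8802 genes. In somite-like cells col4a1 was at 189 ± 42.2 CPM in dact1/2 mutants and 180 ± 31.1 CPM in gpc4 mutants (SD, n = 3), near the 182 ± 63.0 CPM of wildtype.

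In whole embryos no collagen gene was called. In dact1/2 mutants 0 of 34 members were called by edgeR, beside 2.21% of 14141 genes, and 3 had an unadjusted p under 0.05. Over all genes 2583 of 14141 had one. In gpc4 mutants 0 of 35 were called, beside 2.41% of 14137 genes, and 7 had an unadjusted p under 0.05. Over all genes 2374 of 14137 had one. The one member with an adjusted p under 0.1 was col12a1a in gpc4 mutants, at 25.2, 27.2 and 26.2 CPM against 22.1, 20.4 and 20.8 CPM in wildtype replicates 2 to 4, but the change of 0.37 ± 0.09 (adjusted p = 0.0923) was under the fold threshold and wildtype replicate 1 was at 25.3 CPM. The notochord genes were not called in whole embryos either. col5a3a was at 40.5, 41.9 and 38.7 CPM in dact1/2 mutants and 30.5, 16.2 and 38.8 CPM in gpc4 mutants, next to 8.53 CPM in wildtype replicate 1 and 62.2, 38.3 and 84.5 CPM in the others. Between the 2 mutants, 0 of 35 members were called, beside 2.04% of 14143 genes, and 6 had an unadjusted p under 0.05. The nearest was col15a1b, lower in dact1/2 mutants (66.2, 71.8 and 56.1 CPM) than in gpc4 mutants (109, 106 and 80.5 CPM), whose change of -0.56 ± 0.12 (adjusted p = 0.0823) just missed the fold threshold.

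Outside the notochord 0 to 3 processing genes were called per comparison. In dact1/2 mutants these were 1 of 43 tested genes in whole embryos, 3 of 30 in ectoderm-like, 2 of 34 in lateral plate mesoderm-like, 2 of 29 in epidermis-like and 0 of 28 in paraxial mesoderm-like cells. In the same order 2.21%, 1.82%, 1.85%, 1.29% and 1.06% of all genes were called in either direction. In gpc4 mutants they were 0 of 43, 1 of 29, 1 of 36, 1 of 30 and 0 of 28, beside 2.41%, 2.12%, 1.84%, 1.68% and 1.73% of all genes. All calls of processing genes in both mutants were higher. p3h1, a prolyl 3-hydroxylase, was called higher in ectoderm-like, lateral plate mesoderm-like and epidermis-like cells of both mutants and in whole dact1/2 embryos. In ectoderm-like cells it was at 32.0, 38.4 and 38.1 CPM in wildtype replicates 2 to 4, 72.8, 65.4 and 60.1 CPM in dact1/2 mutants (0.92 ± 0.12, adjusted p = 0.00256, edgeR) and 56.0, 54.1 and 61.9 CPM in gpc4 mutants (0.68 ± 0.12, adjusted p = 0.0201), but wildtype replicate 1 was at 97.3 CPM, above every mutant. p4ha1b was called higher in ectoderm-like, lateral plate mesoderm-like and epidermis-like cells of dact1/2 mutants, and plod1a in ectoderm-like cells. In ectoderm-like cells both calls were lost when any of wildtype replicates 2 to 4, dact1/2 replicate 1 or dact1/2 replicate 3 was left out. The p3h1 call held there without each of the 6 embryos in both mutants, as in gpc4 lateral plate mesoderm-like cells. In dact1/2 epidermis-like cells it was lost without wildtype replicate 3. Without wildtype replicate 3 or dact1/2 replicate 1 it was lost in dact1/2 lateral plate mesoderm-like cells, and in whole embryos also without wildtype replicate 2. In gpc4 epidermis-like cells it was lost without any 1 of wildtype replicates 2 to 4, gpc4 replicate 1 or gpc4 replicate 3. The p4ha1b call was lost in lateral plate mesoderm-like cells without wildtype replicate 2 or dact1/2 replicate 3. In epidermis-like cells it was lost without wildtype replicate 3, wildtype replicate 4 or dact1/2 replicate 3. The p4ha1b values were uneven, with 99.5, 24.1 and 60.1 CPM in ectoderm-like cells of the 3 dact1/2 mutants against 20 to 23.1 CPM in wildtype. No other gene of the 4 lists was called outside notochord-like cells. With all 4 wildtype embryos 0 genes of the lists were called in any comparison.

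With wildtype replicate 1 included, 0 collagen genes were called by edgeR in any of the 12 comparisons with wildtype, and few genes of any kind were. In dact1/2 mutants 0.0415% of genes were called in whole embryos, 0.0763% in ectoderm-like, 0.0218% in paraxial mesoderm-like, 0.0397% in lateral plate mesoderm-like and 0% in epidermis-like cells. In gpc4 mutants the shares were 0.119%, 0.125%, 0.0778%, 0.0982% and 0.0632%. The change of col2a1a in lateral plate mesoderm-like cells of gpc4 mutants stayed at 1.63 ± 0.28 (SE, adjusted p = 0.158, edgeR), and that of col8a1a in epidermis-like cells was 2.28 ± 0.41 (adjusted p = 0.154).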

How the data were processed

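Single-cell suspensions of whole embryos were barcoded with the 10x 3′ v3 chemistry. The deposited matrices hold UMI counts per gene and droplet, which the authors made with Cell Ranger 6.1.0 against GRCz11. No normalized values were used. Each embryo was its own dissociation and library, so embryos were the replicates.

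Cells were kept, as in the study's methods, with at least 1500 UMIs, at least 750 genes, under 5% of UMIs from mitochondrial genes and log10 genes above 80% of log10 UMIs. Genes were kept if found in at least 1 of 3000 cells. This left 16449 of 21980 deposited barcodes and 19998 genes, fewer cells and genes than the study states after its own filtering, for which the cause was not tested. No doublet caller was run and the study's own cluster labels were not used. In R 4.3.3, sctransform 0.4.2 gave residuals, Seurat 5.3.0 clustered the cells, embryo means were removed, and 40 principal components of 3000 variable genes without collagen genes were clustered (Louvain resolution 0.3). A cluster was named from 20 marker lists, of whose 232 symbols 228 were found. One cluster stayed unnamed. Rebuilt clusters may differ from the study's.

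UMIs were summed per embryo and cell group. Ectoderm joined neural crest with both neural clusters. Paraxial mesoderm joined the somite, adaxial and presomitic clusters. Lateral plate mesoderm joined heart field, pronephros, cephalic mesoderm and the blood and vessel clusters. Sums were tested with edgeR 4.0.16 (quasi-likelihood, TMM, filterByExpr, limma 3.58.1) over all genes, and the same scripts were tested on simulated data. SE is derived from the fitted test. DESeq2 1.42.0 with and without apeglm 1.24.0 was an alternative, as were RLE size factors, no filter, a replicate block, other clusterings and leaving out each embryo. Named members are those called anywhere, the 12 with most UMIs, and the leading member of each cluster at 50 CPM or more. The members and lists were chosen with earlier results of these data known. Deviations of same-numbered dact1/2 and gpc4 mutants in whole embryos correlated at 0.267, 0.304 and 0.153, and those of other numbers at -0.247 to -0.0205. Each genotype was centered on its own mean, which ties these values together, and the labels name no shared batch. Taking equal numbers as pairs is therefore an assumption. The block left the count of called members at 0 in whole embryos and moved it from 0 to 2 in notochord-like cells. Depth ranges are in the report and limit genes with few UMIs, and precision covers counting error and embryo spread only.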

Additional observations from a re-analysis of the deposited data

Results flagged for a closer look

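Among 32 groups of 4 wildtype values examined (21 named collagen genes and the collagen sum in whole embryos, and 10 called genes in notochord-like cells), 3 genes in whole embryos had 1 embryo far from the other 3, by the gap to its nearest neighbor divided by the whole range, above Dixon's 95% critical value. Chance alone gives such a gap in about 5% of groups. col5a1 was at 11.2 CPM in wildtype replicate 1 and 46.5, 49.2 and 45.4 CPM in replicates 2 to 4, a ratio of 0.900. col1a1a was at 0.948 CPM in replicate 1 and 7.56, 6.61 and 7.26 CPM in the others, a ratio of 0.856. col27a1b differed in the other direction and in another embryo, with 9.85 CPM in replicate 4 against 6.03, 6.39 and 5.79 CPM, a ratio of 0.852.

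In notochord-like cells the 2 mutants differed from each other in 2 collagen genes when same-numbered embryos were taken as pairs, a test added after the values were seen. The log2 difference of dact1/2 over gpc4 mutants was 0.83 ± 0.19 for col11a1a (SE, adjusted p = 0.0430, edgeR) and 0.67 ± 0.18 for col5a3a (adjusted p = 0.0654). Without the pairing 0 genes of 15 were called, beside 1.3% of 4398 genes, and the pairing is an assumption taken from the replicate numbers. Both paired calls were lost without pair 1 or pair 2, where 0% and 1.39% of all genes were called. With pair 3 left out, 11 of 17 members were called, beside 6.45% of 5274 genes.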

How the results depend on the processing

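None of the 24 called values of collagen genes changed direction under the alternatives that left out no embryo. The median log2 fold change of members in whole dact1/2 embryos did, from -0.144 to 0.0765 with all 4 wildtype embryos. In dact1/2 ectoderm the 1 call was lower, but the 1 call without wildtype replicate 3 was higher. The same held in dact1/2 lateral plate mesoderm without dact1/2 replicate 3. Among 24 called values, RLE size factors and no filter on low counts kept 24 each and DESeq2 kept 20. With all 4 wildtype embryos 0 of the 24 passed. Counts of called members then became 0 in notochord, lateral plate mesoderm, ectoderm and epidermis, and calls over all genes went from 312 to 6 (dact1/2) and 341 to 17 (gpc4) in whole embryos and from 97 to 0 and 439 to 1 in notochord. Without a filter, members called were 2 in dact1/2 ectoderm, lateral plate mesoderm and epidermis, 1 in gpc4 whole embryo, ectoderm and paraxial mesoderm, 6 in gpc4 lateral plate mesoderm and 5 in gpc4 epidermis. Over all genes 367 of 18658 to 538 of 19192 were called in these dact1/2 sums. In these gpc4 sums 376 of 19981 to 618 of 18306 were. At Louvain resolution 0.8, and with embryo means kept, dact1/2 ectoderm and gpc4 epidermis had 0 (col8a1a was not tested there in epidermis). Over all genes resolution 0.8 called 166 of 10535 and 130 of 8031 there, and kept means 177 of 10433 and 172 of 9156. DESeq2, with or without apeglm, gave 0 in dact1/2 and 1 in gpc4 lateral plate mesoderm. Over all genes it called 23 of 18841 and 129 of 18943 there without apeglm, and 12 and 106 with it. Leaving out 1 embryo gave, for dact1/2, 0 to 2 in whole embryo, 0 to 1 in ectoderm, paraxial and lateral plate mesoderm, 2 to 8 in notochord and 0 in epidermis, and for gpc4 0 to 2, 0, 0 to 1, 0 to 3, 8 to 12 and 1 to 2 (whole embryo, ectoderm, paraxial, lateral plate, notochord, epidermis). In notochord these fits called 17 of 4471 to 168 of 4426 of all genes in dact1/2 mutants and 106 of 4363 to 480 of 4441 in gpc4 mutants. For dact1/2 they called 119 of 14621 to 512 of 14340 in whole embryo and 67 of 11014 to 292 of 10707 in ectoderm. Paraxial had 41 of 9358 to 217 of 9257, lateral plate 55 of 10160 to 222 of 10185 and epidermis 43 of 10099 to 130 of 9575. For gpc4 whole embryo had 115 of 14512 to 569 of 14426 and ectoderm 117 of 10742 to 194 of 10744. Paraxial had 26 of 9235 to 281 of 9277 and lateral plate 50 of 10342 to 237 of 10298. In gpc4 epidermis 78 of 9634 genes were called without wildtype replicate 2, with 2 members among them. Without wildtype replicate 3 they were 54 of 9739, with 1 member. With all mutant embryos kept, 2.04% of 14143 genes were called between the mutants in whole embryos. Between the mutants leaving out 1 embryo or pair gave 0 to 2 in whole embryos and 0 to 11 in notochord. The highest value was with the replicate block and without pair 3, beside 6.45% of 5274 genes. Wildtype and mutant embryos share 2 replicate numbers. In whole embryos those with equal numbers correlated at -0.102 to -0.0311, and other pairings of wildtype with mutant embryos at -0.047 to 0.0746. Equal numbers therefore did not deviate together here, and no other pairing was used as a block. With the replicate block, members called were 1 in dact1/2 whole embryo, 4 in dact1/2 and 1 in gpc4 lateral plate mesoderm, 1 in dact1/2 and 4 in gpc4 notochord, and 1 in gpc4 epidermis, and 2 between the mutants in notochord. Over all genes, in the same order, 255 of 14141, 324 of 9989, 197 of 10027, 21 of 4175, 31 of 4096, 235 of 9357 and 94 of 4398 were called. Against wildtype the block compares only embryos numbered 2 and 3, since wildtype replicate 4 and mutant replicate 1 each stand alone. Those counts therefore rest on 2 embryos per group. Of 29 calls of processing genes the block kept 7, RLE size factors 29, DESeq2 without shrinkage 21 and all 4 wildtype embryos 0. The causes were not tested. Depth limits the 18 members with under 100 UMIs.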
